A study of Mus musculus with 24 samples.

Results

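The core circadian clock was followed here through 10 of the 33902 gene symbols in the single-nucleus RNA sequencing (snRNA-seq) table: Clock, Npas2, Per1, Per2, Per3, Cry1, Cry2, Nr1d1, Nr1d2 and Dbp. They were picked by name, as the activators, the repressors and an output gene of the clock, and all 10 had counts. They and the gene lists below were chosen with earlier results of these data known, so a share set beside all genes is a description. The tissue was ventral hippocampus, and the donors were adult males, 10 to 16 weeks old, of the inbred strains C57BL/6J (B6) and DBA/2J (D2). The animals carried no transgene and had no treatment in the labels. Each strain had 2 snRNA-seq libraries and 2 libraries of single-nucleus ATAC sequencing (snATAC-seq), which counts fragments of open chromatin, and a library pooled tissue of about 2 animals. Mice were housed on a light-dark cycle, and the hour at which tissue was collected was not given in the sources used here and no result below can be set against a time of day. A level below is in CPM, the counts of a gene scaled to the same total in every library for the nuclei named, and only a gene's own level is compared between samples, since CPM does not correct for gene length.

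In the clock, the proteins Clock or Npas2 pair with Arntl (Bmal1) and switch on genes that carry an E-box, a short DNA motif. Among these are the Period genes (Per1, Per2, Per3) and Cryptochromes (Cry1, Cry2), whose proteins return to the nucleus and inhibit the pair, and Nr1d1 and Nr1d2 (Rev-erb alpha and beta), which repress Arntl and Npas2. Dbp, a D-box binding activator, is an output of the same loop. Transcripts of most of these genes rise and fall over the day in brain and other tissues, and Per1 also answers to corticosteroids and to neuronal activity.

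The 4 snRNA-seq libraries held between 43048686 and 56452272 counts from 6312 to 8707 nuclei, and the authors had divided them into 17 cell types. Lists of marker genes were highest in the type of that name, except that the dentate list summed to 350.3 CPM in the Cajal-Retzius type (CR-CR) and 327 CPM in dentate gyrus neurons (Exc-DG), and the Lamp5 list was highest in CR-CR. Of all symbols, 8204 had counts in D2 alone and 960 in B6 alone, and such symbols took 3.55% to 3.56% of the counts of a D2 library and 0.778% to 0.849% of those of a B6 library. The median gene was 0.09 higher in D2 on the log2 scale in the main scaling. Within reach of the clock genes, Gm43658 and Gm3617 lie inside Clock and Npas2 on the same strand and had 0 counts in B6 but 238 and 162 in D2. The levels of Clock and Npas2 in D2 are therefore uncertain, by an amount that was not estimated. Per3 lies inside Camta1 on the same strand, and Thra, Sphk2 and D930015M05Rik overlap Nr1d1, Dbp and Cry2 on the other strand, so reads shared by these pairs are uncertain as well.

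Sequences are shown where the data bear on them. The first is the middle of the peak of open chromatin upstream of Dbp (chr7:45704140-45704439, GRCm38, plus strand), the only promoter peak of the 10 genes whose accessibility differed between the strains, described at the end. The others are promoters from RefSeq on GRCm38.p6, from 250 bases before to 50 after the start, of Per1 (chr11:69098699-69098998, plus strand), Per3 (chr4:151044616-151044915, minus strand) and Cry1 (chr10:85185005-85185304, minus strand), which hold the clock motifs searched for. Letters are 5′ to 3′ on the gene's strand and are those of the reference assembly, not read from either strain. Capitals mark matches, on either strand, to the E-box CACGTG, its variant CACGTT, which reads as AACGTG on the other strand, and the D-box type motif TTATGNAA.
Dbp upstream peak: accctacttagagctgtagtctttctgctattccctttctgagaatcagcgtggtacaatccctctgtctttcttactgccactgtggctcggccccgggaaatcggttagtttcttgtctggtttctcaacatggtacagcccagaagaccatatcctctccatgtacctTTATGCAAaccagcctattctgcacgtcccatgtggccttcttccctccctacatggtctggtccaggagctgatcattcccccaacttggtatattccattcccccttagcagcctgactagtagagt
Per1 promoter: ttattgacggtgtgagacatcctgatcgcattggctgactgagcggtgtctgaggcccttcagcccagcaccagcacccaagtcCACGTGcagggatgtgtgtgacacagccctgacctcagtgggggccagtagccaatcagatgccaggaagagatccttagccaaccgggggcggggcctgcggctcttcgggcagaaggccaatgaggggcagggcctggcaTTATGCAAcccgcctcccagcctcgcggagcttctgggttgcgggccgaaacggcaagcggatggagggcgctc
Per3 promoter: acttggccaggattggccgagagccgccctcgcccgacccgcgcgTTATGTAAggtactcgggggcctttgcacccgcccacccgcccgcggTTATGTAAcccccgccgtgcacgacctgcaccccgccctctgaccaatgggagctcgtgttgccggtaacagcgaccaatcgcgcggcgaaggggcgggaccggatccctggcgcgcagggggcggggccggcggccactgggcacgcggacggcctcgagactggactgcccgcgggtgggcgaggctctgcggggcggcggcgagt
Cry1 promoter: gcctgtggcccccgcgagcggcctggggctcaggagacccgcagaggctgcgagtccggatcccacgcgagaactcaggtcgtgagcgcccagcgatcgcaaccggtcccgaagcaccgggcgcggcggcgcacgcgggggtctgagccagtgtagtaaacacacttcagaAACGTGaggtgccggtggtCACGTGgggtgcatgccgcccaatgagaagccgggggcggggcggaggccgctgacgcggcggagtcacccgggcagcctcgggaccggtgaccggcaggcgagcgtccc
The RefSeq table held 12 entries for 9 of the 10 genes, and Per2 had none. CACGTG was in promoters of 2 genes, Per1 and Cry1, against 7.15% of all 32851 promoters. CACGTT was in those of 3 genes, Cry1, Cry2 and Nr1d1 (4.68% of all promoters), TTATGNAA in those of Per1 and Per3 (3.38%) and the cyclic AMP element TGACGTCA in none (1.79%). The GC box GGGCGG was in promoters of 8 genes, all but Nr1d1 among those with an entry, and in 35.7% of all promoters. TTATGNAA was also in the Dbp upstream peak, and 6.35% of the 300-base centres of all peaks hold it. A match describes letters in a window and is not a measured site.

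Levels across the 17 cell types differed most for Npas2, Per3, Nr1d1 and Dbp and least for Clock. The cell type with the highest mean was the same in the B6 libraries alone and in the D2 libraries alone for 10 of 10 genes. Clock, the activator found in most tissues, was at 181 ± 11.5 CPM (SD, n = 4 libraries) in oligodendrocytes (NN-ODC) and 139 ± 10.9 in entorhinal excitatory neurons (Exc-ENT), and lowest in vascular and leptomeningeal cells (NN-VLMC, 99.9 ± 14.5) and astrocytes (NN-Astro, 71.0 ± 7.67). Its coefficient of variation over types was 0.18, and only 8.58% of 13776 genes with a mean of at least 5 CPM varied less. Npas2, the Clock homologue known mainly from forebrain, went the other way in oligodendrocytes. It was at 277 ± 22.3 CPM in the Camk2d cluster of CA1 neurons (Exc-CA1-Camk2d) and 205 ± 29.9 in Exc-Gpc6, against 7.28 ± 4.51 in microglia (NN-MGC) and 2.73 ± 2.37 in oligodendrocytes. The 4 libraries of Exc-CA1-Camk2d did not overlap those of Exc-Gpc6.

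The Period genes were each highest in non-neuronal nuclei. Per1 was at 43.0 ± 19 CPM in NN-VLMC and 35.9 ± 18.5 in astrocytes, and at 10.2 ± 7.10 in oligodendrocyte precursors (NN-OPC) and 9.55 ± 4.76 in CR-CR. Per2 was at 42.6 ± 8.42 CPM in precursors and 37.0 ± 17.1 in NN-VLMC, and at 5.19 ± 3.67 in oligodendrocytes and 2.52 ± 3.22 in microglia. For these 2 genes the libraries of neighbouring types in the order of means overlapped in 15 of 16 and 16 of 16 neighbouring pairs, so the order is not resolved step by step. Per3 was better separated. It was at 241 ± 30.2 CPM in NN-VLMC and 178 ± 13.6 in astrocytes with no overlap between the libraries of the types, and at 20.1 ± 7.67 in oligodendrocytes and 14.2 ± 3.59 in interneurons of the medial ganglionic eminence (Inh-MGE).

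The repressors Cry1 and Cry2 had separate patterns. Cry1 was at 20 ± 4.29 CPM in NN-VLMC and 16.7 ± 1.5 in Lamp5 interneurons (Inh-Lamp5), and at 4.31 ± 3.52 in microglia and 3.34 ± 0.61 in the Galntl6 cluster of CA1 (Exc-CA1-Galntl6). Cry2 was at 93.4 ± 5.15 CPM in astrocytes, above every library of the next type, Exc-DG (55.9 ± 3.42), and at 24.3 ± 0.73 in precursors and 14.7 ± 3.13 in microglia. The nuclear receptors and Dbp shared their leading types, NN-VLMC and astrocytes. Nr1d1 was at 52.9 ± 11.8 and 41.5 ± 3.95 CPM there and at 4.39 ± 1.82 in Inh-MGE and 4.0 ± 1.55 in interneurons of the caudal eminence (Inh-CGE). Nr1d2 was at 189 ± 41.0 and 95.9 ± 25.0 CPM there and lowest in Exc-DG (28.2 ± 3.69) and CA3 neurons (Exc-CA3, 19.5 ± 4.2). Dbp was at 84.2 ± 25.3 and 44.9 ± 9.47 CPM there and lowest in Inh-MGE (5.79 ± 2.28) and Exc-CA3 (4.34 ± 0.87). Across the 17 type means the most alike pair was Nr1d1 and Dbp (r = 0.91), followed by Per3 and Nr1d1 (r = 0.82) and Nr1d2 and Dbp (r = 0.79). These are descriptions over types that share libraries.

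**Figure D1:**
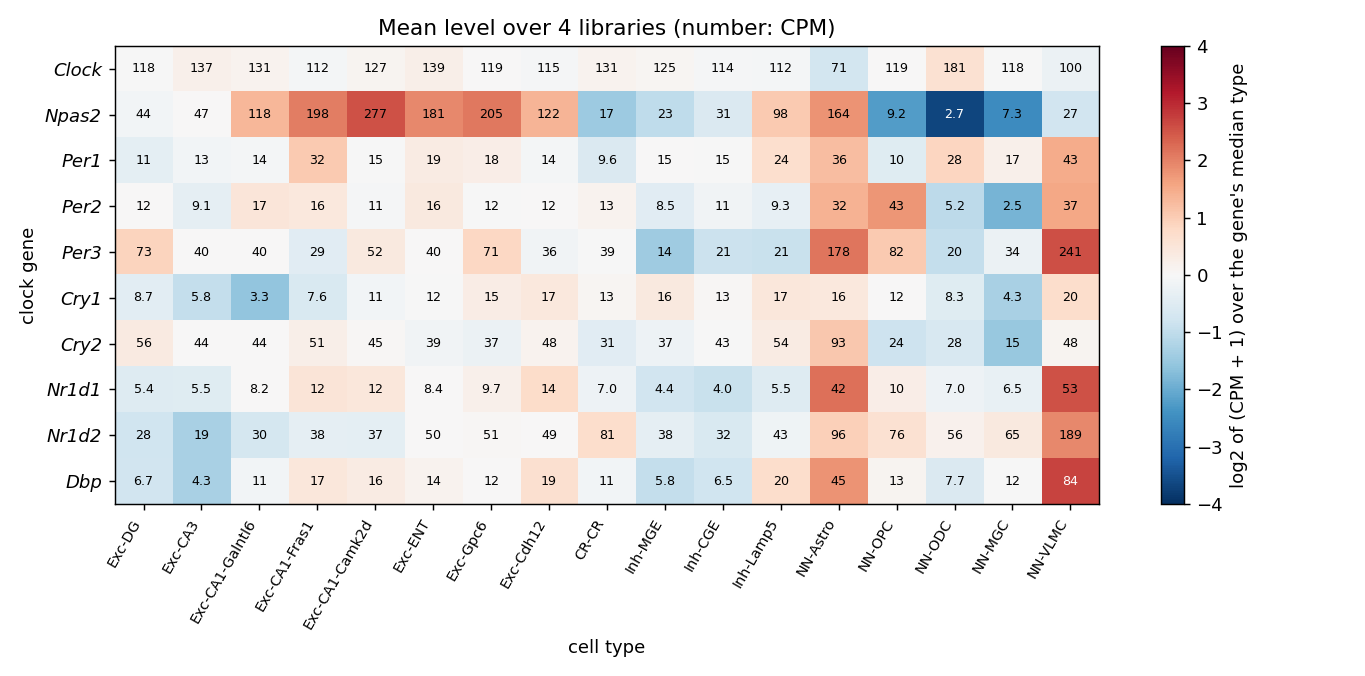
Mean level of each clock gene (rows) in each cell type (columns) over the 4 snRNA-seq libraries. The number in a cell is CPM, and the colour is log2 of CPM plus 1 over the gene's median type. NN-VLMC is the highest column for 6 genes, Per1, Per3, Cry1, Nr1d1, Nr1d2 and Dbp, and Npas2 ranges from 2.7 to 277 CPM.

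Summed over classes, neurons had more of the activators Clock and Npas2, and glia more of the Period and Rev-erb genes and Dbp. Of the 10 genes, 2 were higher in neurons than in glia (34.9% of all genes were called higher), Clock by 0.30 (SE 0.06) and Npas2 by 0.63 (SE 0.10) on the log2 scale. Another 6 were lower in neurons (background 35.5%): Nr1d1 by -1.53, Dbp by -1.27, Per3 by -1.12, Nr1d2 by -1.07, Per2 by -0.81 and Per1 by -0.57. Nr1d1, for example, was at 7.06, 7.52, 7.19 and 8.37 CPM in the neurons of the 4 libraries and at 21.4, 22.0, 25.6 and 26.5 in their glia. Cry1 (-0.29, adjusted p = 0.07) and Cry2 (-0.19, adjusted p = 0.057) were not called. The Per1 call was lost with DESeq2 and without either B6 library. Glia are summed by their counts, and astrocytes weigh most. Single glial types differed from the sum. Clock was lowest of all types in astrocytes (71.0 CPM) and highest in oligodendrocytes (181 CPM). Npas2 was at 164 CPM in astrocytes, above Exc-DG (43.6 CPM), and at 9.20 CPM or lower in the other glial types. Nr1d1 was at 41.5 CPM in astrocytes, and at 10.1, 7.00 and 6.53 in precursors, oligodendrocytes and microglia, against 7.54 in the neuron sums. Dbp was at 44.9 CPM in astrocytes and at 13.1, 7.69 and 11.8 in those types, against 10.1 in neurons. Per3 was at 178 CPM in astrocytes and at 82.5, 20.1 and 33.5 there, against 45.4 in neurons. Nr1d2 was at 56.0 CPM or higher in every glial type, against 34.2 in neurons. With every type weighted alike, 5 of the 10 genes were called, and 2 estimates turned with a call in either fit, Per2 to 0.12 and Cry2 to 0.47. The types were made by the authors by clustering the same RNA, so these p-values describe the classes and are no independent test of them.

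Excitatory neurons were above inhibitory neurons for 7 genes (background 27.8%) and below for 1 (28.1%). Npas2 was at 126, 132, 117 and 115 CPM in excitatory and 36.5, 39.5, 35.0 and 33.9 CPM in inhibitory neurons of the 4 libraries, a difference of 1.82 (SE 0.05). Per3 was at 53.2, 46.5, 49.1 and 52.7 against 19.3, 16.8, 18.4 and 15 CPM (1.59, SE 0.07). No library overlapped for either gene. Nr1d1 (0.96), Per2 (0.57), Dbp (0.47), Cry2 (0.24) and Clock (0.13) were also higher in excitatory neurons. Cry1 was the exception, at 8.27 ± 0.58 against 15 ± 1.69 CPM (-0.79, SE 0.10, adjusted p = 1.6e-05). Per1 (0.04) and Nr1d2 (-0.11) were not called. Single types differed from these sums. Inh-Lamp5 had Dbp at 20.2 and Npas2 at 98.1 CPM, above Exc-DG (6.66 and 43.6) and Exc-CA3 (4.34 and 46.7). Without the library as a block 5 genes were called, Clock, Per2 and Dbp being lost, and with every type weighted alike also 5, Clock, Cry2 and Dbp being lost. The Clock call was lost as well without B6 library 2 or either D2 library.

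Between the strains, 4 clock genes were lower in D2 and 1 was higher when all nuclei of a library were summed. The Period genes Per1 and Per2 had the largest changes among the 10. Per2 was at 16.9 and 19.5 CPM in B6 and 10.3 and 11.6 in D2, a log2 fold change (D2 minus B6) of -0.78 (SE 0.10, adjusted p = 1.8e-05). Per1 was at 23.0 and 19.3 CPM in B6 and 14.6 and 13.5 in D2 (-0.62, SE 0.11, adjusted p = 1.8e-04). Both B6 libraries were above both D2 libraries for each gene. The Rev-erb gene Nr1d2 was at 44.5 and 48.9 CPM in B6 and 35.3 and 38.5 in D2 (-0.38, SE 0.08, adjusted p = 8.5e-04). The activator Npas2 was at 112 and 111 CPM in B6 and 98.7 and 94.2 in D2 (-0.25, SE 0.07, adjusted p = 0.0085), and it missed the threshold without D2 library 3. The libraries of the strains did not overlap for Nr1d2 or Npas2 either. The D2 level of Npas2 is subject to the overlap with Gm3617 described above. Dbp was higher in D2, at 14.1 and 15.1 against 10.3 and 12.8 CPM (0.30, SE 0.11, adjusted p = 0.043). That call was lost with DESeq2 (adjusted p = 0.15), over symbols counted in both strains, with types weighted alike (0.10) and without B6 library 2, D2 library 2 or D2 library 3. Astrocytes, the type with the next highest Dbp after NN-VLMC, also supplied more of the counts in D2 (6.83% and 8.72%, against 5.75% and 5.61% in B6). In neurons alone Dbp was at 8.90 and 9.15 CPM in B6 and 10.7 and 11.7 in D2, and in glia at 18.4 and 28.7 against 31.6 and 28.7. The part of cell composition in the Dbp values was not tested.

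The remaining 5 genes were not called. Clock was at 125 and 129 CPM in B6 and 121 and 117 in D2 (-0.13, adjusted p = 0.13), Cry1 at 9.75 and 11 against 8.92 and 9.78 (-0.19, adjusted p = 0.18), and Nr1d1 at 9.14 and 9.90 against 10.2 and 11.7 (0.15, adjusted p = 0.28). Per3 (0.03, SE 0.07) and Cry2 (0.03, SE 0.07) had the smallest estimates. So the 4 lower calls of 10 stand beside 16% of all 25728 genes called lower, and the 1 higher call beside 30.7% called higher. The median log2 fold change of the 10 genes was -0.16 and that of all genes 0.09. In bulk sums, a lower level in each nucleus and a smaller share of nuclei that express a gene cannot be told apart, and this holds for the sums within a type below as well.

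**Figure D2:**
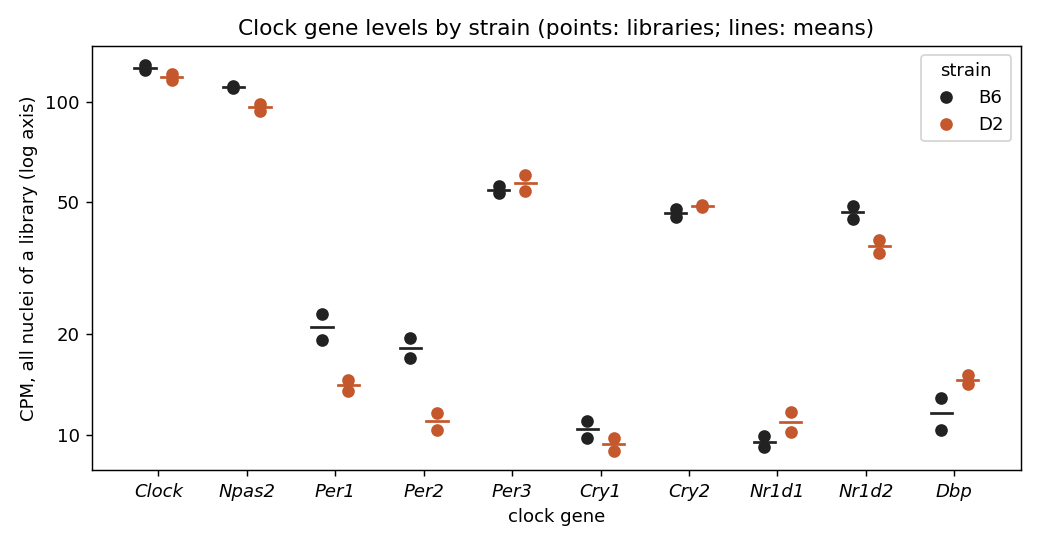
Level of each clock gene in all nuclei of a library, in CPM on a log axis, for the 2 B6 (black) and 2 D2 (orange) libraries. Points are libraries and lines are means. Per1, Per2, Nr1d2 and Npas2 are lower in both D2 libraries than in both B6 libraries and were called, and Dbp is higher and was called. Clock is also lower in both D2 libraries, and Cry2 and Nr1d1 higher, without a call.

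Within cell types the lower levels in D2 recurred in the same 4 genes. Every type came from the same 4 libraries, so types are not replicates, and directions or calls in several types are not independent. Of 153 tests of a clock gene in a type, 24 were called lower in D2 (pooled background over all genes 9.25%) and 1 higher (12.9%). The calls fell in 10 of the 17 types: 6 excitatory types and 4 glial ones. No clock gene was called in any of the 3 inhibitory types, in NN-VLMC or CR-CR, nor in the Camk2d and Cdh12 excitatory types. Of all genes, 4.26% (CR-CR) to 21% (Inh-MGE) were called in those types, against 36% in Exc-DG. A missing call there does not show that the strains were alike. Summed over inhibitory neurons, the same 4 genes had lower means in D2, Per1 for example at 19.9 CPM in B6 and 12.4 in D2. Both B6 libraries lay above both D2 libraries in 44.4% of the tests (background 25.4%) and below them in 11.8% (background 32.6%). DESeq2 called 9 of the tests, and edgeR without D2 library 2 called 11.

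Per2 had a lower estimate in D2 in 15 of 15 types tested and was called in 6. In Exc-CA1-Galntl6 it was at 23.1 and 23.3 CPM in B6 and 9.74 and 11.9 in D2 (-1.14, SE 0.16, adjusted p = 2.2e-05). In astrocytes it was at 38.3 and 52.1 against 17.7 and 21.8 CPM (-1.10, SE 0.18, adjusted p = 4.1e-06), and in the Fras1 cluster of CA1 (Exc-CA1-Fras1) at 22.9 and 20.1 against 11.3 and 11.1 (-1.01). These 3 calls held under all 9 alternatives. Oligodendrocytes had the largest estimate (-1.87, SE 0.53, adjusted p = 0.012), from 15 and 23 counts in B6 and 2 and 4 in D2, and it was kept under 4 of 9 alternatives. Exc-Gpc6 (-0.95) and Exc-DG (-0.53, 13.9 and 14.0 against 9.77 and 9.88 CPM) completed the 6.

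Per1 had a lower estimate in 15 of 16 types and was called in 5. The exception among the types tested was Exc-DG, at 11.8 and 10.2 CPM in B6 and 11.4 and 11 in D2 (0.01). Oligodendrocytes lay at the other end. Per1 was there at 47.8 and 41.5 CPM in B6 and 10.8 and 10.8 in D2 (-1.93, SE 0.26, adjusted p = 3.0e-06). Astrocytes had 61.1 and 37.6 against 25.6 and 19.2 CPM (-1.05, SE 0.19, adjusted p = 2.4e-05), and both of these calls held under all 9 alternatives. Precursors (-1.63, 27 and 19 counts in B6 and 4 and 9 in D2), Exc-ENT (-0.74) and Exc-CA1-Fras1 (-0.69, 38.4 and 38.4 against 27.5 and 22.0 CPM) were the other calls.

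Nr1d2 had a lower estimate in 17 of 17 types and was called in 6, from -0.34 in Exc-DG to -0.86 in microglia. In Exc-CA1-Fras1 it was at 46.0 and 44.5 CPM in B6 and 29.4 and 32.2 in D2 (-0.63), in Exc-CA3 at 22.4 and 23.8 against 15.4 and 16.4 (-0.56), in Exc-CA1-Galntl6 at 36.3 and 33.1 against 22.5 and 26.5 (-0.54) and in astrocytes at 96.8 and 131 against 74.2 and 82.0 (-0.45). None of the 6 calls held under all 9 alternatives, and that in microglia (83.6 and 87.4 against 38.7 and 50.6 CPM) was kept under 4. Npas2 was called lower in 6 of 14 types tested. In astrocytes it was at 228 and 185 CPM in B6 and 135 and 107 in D2 (-0.68, SE 0.12, adjusted p = 1.2e-05), and in Exc-CA1-Galntl6 at 132 and 128 against 105 and 106 (-0.33, adjusted p = 0.0022). Those 2 calls held under all alternatives. The others were precursors (-1.42, 22 and 18 counts against 5 and 8), Exc-ENT (-0.37), Exc-Gpc6 (-0.33) and Exc-CA1-Fras1 (-0.31).

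Of the 6 other genes, Clock was called once and Dbp once. Clock was lower in Exc-ENT, at 149 and 148 against 130 and 129.6 CPM (-0.24, adjusted p = 0.049), a call kept under 1 of 9 alternatives. Dbp was higher in D2 in Exc-Gpc6, at 14.4 and 17.7 against 9.06 and 7.11 CPM (0.93, SE 0.33, adjusted p = 0.039), kept under 4 of 9. Its estimate was above 0 in 11 of 15 types. Per3, Cry1, Cry2 and Nr1d1 were called in no type, with ranges of -0.49 to 0.42, -0.62 to 0.47, -0.40 to 0.56 and -0.43 to 0.38.

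**Figure D3:**
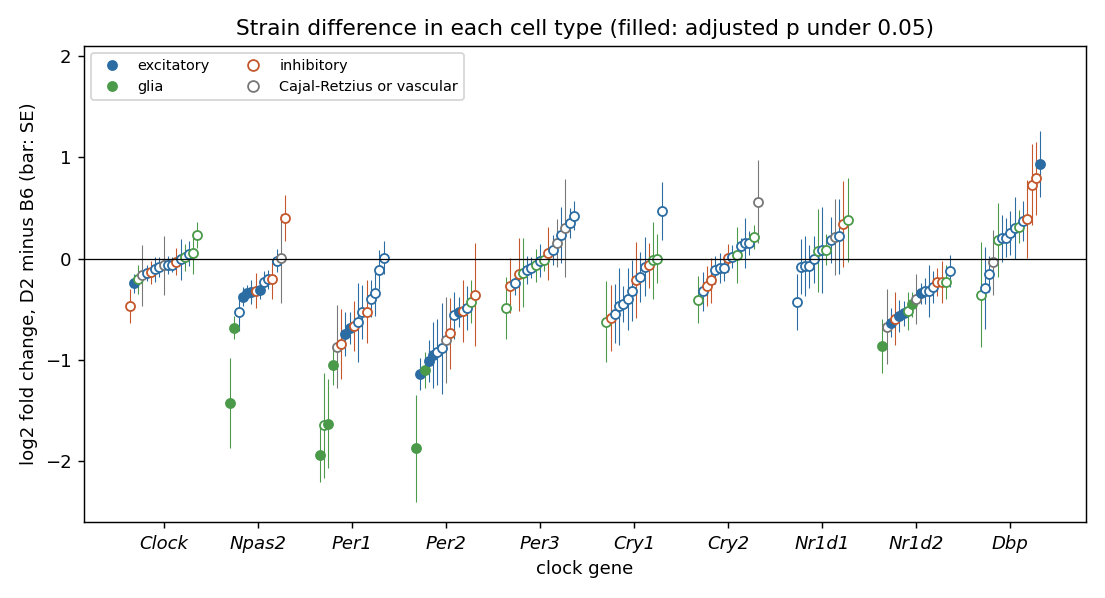
Log2 fold change, D2 minus B6, of each clock gene in each cell type where it was tested. A point is a type, coloured by class, with its SE as a bar, and filled points have an adjusted p under 0.05 (edgeR). Filled points lie below 0 for Clock, Npas2, Per1, Per2 and Nr1d2 and above 0 for Dbp alone.

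Whether a strain difference itself differed between classes was tested as an interaction. In glia Per1 was at 47.0 and 32.1 CPM in B6 and 17.2 and 13.9 in D2, and in neurons at 19.3 and 16.6 against 13.9 and 13.4. The difference between these 2 effects, neurons minus glia, was 0.83 on the log2 scale (SE 0.16, adjusted p = 8.4e-04), and Per1 was the only one of the 10 genes called, a share near the 8.76% of all genes called. The call was lost without D2 library 3 (0.72), and without B6 library 3 a second gene, Npas2, was called (0.46). Between excitatory and inhibitory neurons none of the 10 was called by edgeR or DESeq2 (background 2.24%), nor was any at an unadjusted p under 0.05 (the smallest was that of Nr1d1, 0.055 by edgeR). When each type was set against all other nuclei, a comparison added after the data were seen, 3 of 170 gene and type pairs were called, 1.76% beside a background of 1.74%. The strain effect (D2 minus B6) on Per1 in oligodendrocytes differed from that in all other nuclei by -1.41 (SE 0.28, adjusted p = 5.5e-04), and that on Per1 in Exc-DG by 0.69 (SE 0.16, adjusted p = 0.0037). The strain effect on Npas2 in astrocytes differed by -0.50 (SE 0.12, adjusted p = 0.021).

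**Figure D4:**
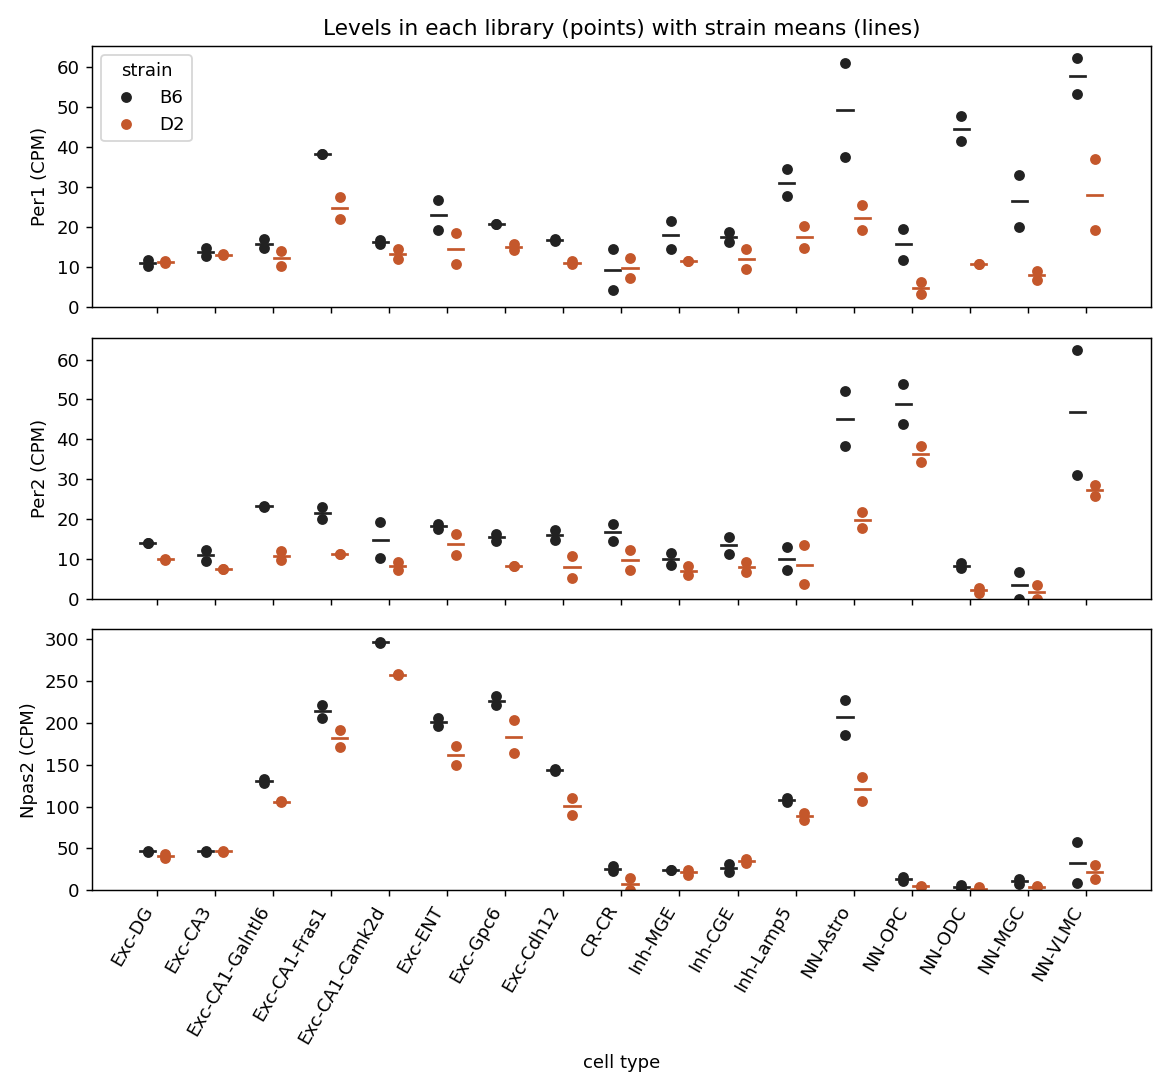
Levels of Per1, Per2 and Npas2 in CPM in each cell type, for the B6 (black) and D2 (orange) libraries as points with strain means as lines. Per1 in oligodendrocytes is at 47.8 and 41.5 CPM in B6 and 10.8 in both D2 libraries, while the strains overlap in Exc-DG.

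Of 6 genes known to answer corticosteroids, 4 were lower in D2 beside Per1 in oligodendrocytes and in astrocytes, and the other 2, Errfi1 and Pdk4, were not. In oligodendrocytes Fkbp5, a chaperone of the glucocorticoid receptor, was at 209 and 98.0 CPM in B6 and 12.2 and 12.1 in D2 (-3.53), and the kinase Sgk1 at 523 and 278 against 32.4 and 32.4 (-3.53). The factor Zbtb16 (-2.71) and Tsc22d3 (-0.97) were lower there too. Within B6, library 2 was above library 3 for each of these, as for Per1. In astrocytes Zbtb16 was at 281 and 187 against 35.1 and 32.8 CPM (-2.70) and Fkbp5 was also lower (-2.51), as were Tsc22d3 (-1.41) and Sgk1 (-1.28). Pdk4 was higher in D2 in astrocytes, at 35.7 and 41.5 against 30.6 and 24.6 CPM (0.58), and Errfi1 was not called in either type (0.16 and -0.17) but was higher in microglia (1.25). In Exc-DG, where the Per1 levels of the strains overlapped, Fkbp5 was lower by -0.41 and Sgk1 higher by 0.47. Summed over inhibitory neurons, mean Per1 was 19.9 CPM in B6 and 12.4 in D2, while Fkbp5 was at 36.6 and 37.3. Sgk1 was there at 130 and 108 CPM, Zbtb16 at 183 and 162 and Tsc22d3 at 4.50 and 3.53. Summed over excitatory neurons, Per1 was at 17.8 and 13.9 CPM, Fkbp5 at 88.4 and 59.7 and Sgk1 at 78.5 and 77.4. Over the 6 genes, 4 were lower and 1 higher in all nuclei, beside 16% of all genes lower and 30.7% higher. By type, 32 of 80 tests were lower (40%, background 9.25%) and 3 higher (3.75%, background 12.9%). The list was chosen with earlier results of these data known, so these shares describe it and are no test. Of 7 activity-induced genes, only Junb was called in all nuclei, higher in D2 (0.69, 13.8 and 15.9 against 19.8 and 29.5 CPM). The D2 libraries also differed from each other in Npas4 (3.57 and 8.39 CPM) and Egr1 (4.47 and 7.57). A missing call for these genes does not show that the strains were alike. By type 6 of 62 tests were higher (9.68%) and 4 lower (6.45%), both shares below those backgrounds. The part of corticosteroid exposure or activity in the Per1 values was not tested.

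Among 26 other clock genes, 7 were lower and 3 higher in D2 in all nuclei, with a median log2 fold change of -0.03, beside 16% of all genes lower and 30.7% higher. The partners of Clock and Npas2 were lower: Arntl was at 52.2 and 52.7 CPM in B6 and 41.2 and 42.0 in D2 (-0.37), and Arntl2 at 28.5 and 29.0 against 20.5 and 19.8 (-0.55). Noct, a rhythmic phosphatase of nicotinamide dinucleotides (-0.52), the D-box factor Hlf (-0.32), the repressor Ciart (-0.37) and the ligase subunit Fbxw11 (-0.26) were also lower. The receptor Rorb was higher (0.59, 111 and 112 against 154 and 193 CPM), as were the ligase subunit Fbxl21 (0.51) and Tipin, a replication fork protein that binds Timeless (1.49, 16.2 and 16.2 against 45.6 and 48.1 CPM). Rorb is mainly a transcript of astrocytes (1588 CPM there), whose larger share of the counts in D2 is given above. Within astrocytes Rorb was at 1409 and 1485 against 1696 and 1763 CPM (0.35, adjusted p = 0.0017). By type, 27 tests of the list were higher and 28 lower of 367, and 17 of the 27 were Tipin. Those are 7.36% and 7.63% of the tests, both below the backgrounds of 12.9% and 9.25%. Ciart and Fbxl21 were not called by DESeq2.

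The chromatin at the starts of the clock genes was open in both strains, and 1 of 12 promoter peaks was called different between them. The snATAC-seq libraries held 90684494 to 122322471 counts over 300819 peaks, and those 12 peaks lay within 1 kb of the GENCODE starts of the 10 genes, at least 1 for each. Of the 4 genes lower in D2 by RNA, Per2 was at 56.6 and 55.7 CPM in B6 and 57.3 and 56.3 in D2 (0.05, adjusted p = 0.59), Per1 at 52.9 and 51.4 against 56.5 and 51.5 (0.08), Nr1d2 at 64.5 and 64.8 against 68.2 and 65.6 (0.08) and Npas2 at 21.4 and 22.9 against 22.5 and 23.8 (0.10). None of these 4 was called. The 2 RefSeq starts of Per1, inside the gene, had peaks of their own that were not called either (0.03 and 0.07).

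The 1 promoter peak called between the strains was the upstream peak of Dbp (chr7:45704106-45704474), centred 798 bases before the start, whose middle is printed above. It was at 17.9 and 17.4 CPM in B6 and 12.1 and 11.3 in D2 (-0.56, SE 0.07, adjusted p = 1.4e-10), with background shares of 5.49% of peaks higher and 5.53% lower in D2. By type, which was not tested, it was at 17.2 and 16.8 against 7.51 and 7.51 CPM in Exc-DG. The libraries of the strains overlapped in Exc-Cdh12, Exc-Gpc6 (19.1 and 22.2 against 20.5 and 14.6) and astrocytes (17.1 and 32.9 against 27.7 and 21.4). They also overlapped in the other glial types, where the peak had 14 to 29 counts. Of peaks within 1 kb of a protein-coding start, 12.2% were called between the strains in either direction, against 8.33% of the 12 peaks. The median log2 fold change was 0.06 in that set and 0.09 for the 12. Dbp RNA was higher in D2, and the peak at the Dbp start itself was at 40.3 and 37.8 against 43.2 and 40.9 CPM (0.14, unadjusted p = 0.0070, adjusted p = 0.059). The upstream peak falls outside a window of 500 bases, with which no peak was called by adjusted p, and the start peak was then the 1 at an unadjusted p under 0.05. Without D2 library 3, 5 of the 12 were called.

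Between neuron classes, 11 of the 12 peaks were lower in excitatory than in inhibitory neurons, and none was higher. Of all peaks 33.2% were higher and 30% lower in excitatory neurons, but of the 15326 peaks within 1 kb of a protein-coding start 79.9% were lower, with a median of -0.55 against -0.46 for the 12. The Nr1d2 peak was at 62.0 ± 0.85 against 85.9 ± 4.25 CPM (-0.70) and that of Npas2 at 22.2 ± 1.20 against 26.2 ± 0.94 (-0.46), although Npas2 RNA was higher in excitatory neurons. Across the Npas2 gene body, 19 of 37 peaks were called higher in excitatory and 11 in inhibitory neurons, beside 33.2% and 30% of all peaks. For Nr1d2 these were 1 and 4 of 7 peaks. The Nr1d1 peak was called lower (-0.14, adjusted p = 0.018), but with library totals in place of TMM its sign turned, at 30.0 ± 1.09 against 28.3 ± 2.35 CPM. The peak upstream of Cry2 was the 1 not called. Across the gene bodies, 3 peaks in all were called between strains, higher in D2, 1 each in Npas2, Per2 and Per3 of 37, 7 and 6 peaks. The other genes, Clock with 25 peaks among them, had no call, and no peak was called lower. Of all peaks, 5.49% were called higher and 5.53% lower in D2.

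**Figure D5:**
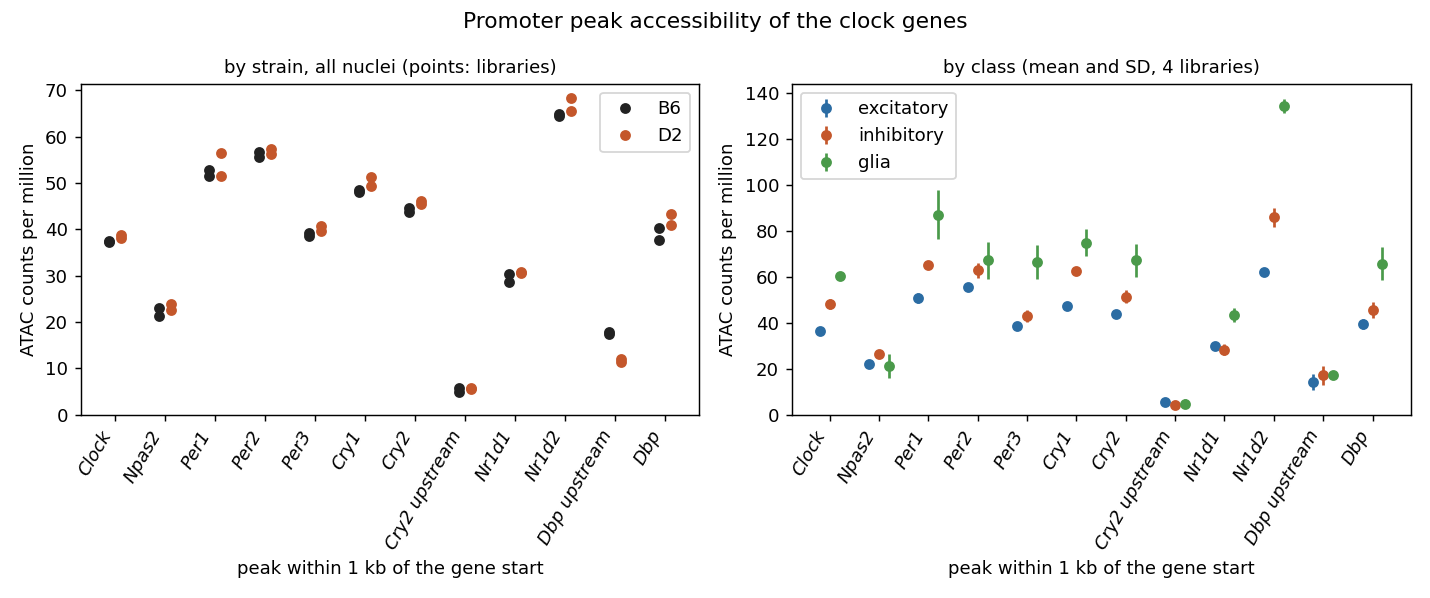
Accessibility of the 12 peaks within 1 kb of the clock gene starts, in ATAC counts scaled to the same library total (CPM), by strain in all nuclei (left, points are libraries) and by class (right, mean and SD of 4 libraries). The upstream Dbp peak is the 1 where both D2 libraries (12.1 and 11.3) lie well below both B6 libraries (17.9 and 17.4).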

How the data were processed

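Raw counts per gene and cell type (snRNA-seq, 33902 symbols, 17 types) and per peak and cell type (snATAC-seq, 300819 peaks, 15 types) were deposited by the authors as sums over the nuclei of a library, without normalization. The authors mapped reads with Cell Ranger 6.0.2 (introns retained) and Cell Ranger ATAC 2.0.0 to mm10 for B6 and, for D2, to a version with the SNPs of that strain swapped in. The annotation was from GENCODE, of a release not given in the sources used here. They removed doublets with DoubletFinder, merged peaks that MACS had called per sample, and named the types. Nuclei for snRNA-seq were sorted to enrich those with NeuN, a neuronal protein, and those for snATAC-seq were not. The tables number libraries 2 and 3 where the labels number replicates 1 and 2, so a column was placed in a strain and not on a sample. Replicates are pools of about 2 animals. The 16 methylation samples were not analysed here.

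Counts were summed over all types, over classes (8 excitatory, 3 inhibitory and 4 glial types) or kept by type. The test was edgeR 4.0.16 (R 4.3.3), quasi-likelihood, with TMM factors, filterByExpr (peaks: at least 10 counts) and Benjamini-Hochberg adjustment over all genes or peaks at 0.05. Class comparisons had the library as a block. DESeq2 1.42.0, limma 3.58.1 on log2 of CPM plus 1 for equal weights per type, RLE factors, no filter, symbols counted in both strains, a window of 500 bases, the block and each library left out were alternatives. Folds are D2 minus B6 unless named, and the smallest p of an exact permutation test of 2 libraries against 2 is 0.33. Steps were tested on simulated data. Gene positions came from GENCODE vM21 and promoter sequences from RefSeq (GRCm38.p6). Replicate libraries differed beyond sampling noise (chi-square per degree of freedom 6.32 and 10.5).

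The 10 genes and the lists of other clock, activity-induced, corticosteroid and marker genes were chosen with earlier results of these data known. Named were all 10 genes, the other clock genes called in all nuclei (1 of them is not reported here), and for each of the 10 its 2 highest and 2 lowest types and each type where it was called. Further pairs of genes and types were named after their values were seen. Python 3.11.15, numpy 2.4.6, pandas 2.3.3 and matplotlib 3.10.9 were used. The p-values measure only the spread between these pools.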

Additional observations from a re-analysis of the deposited data

Results flagged for a closer look

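In 4 cases the strain effect on a clock gene differed between cell types or classes by a test of the difference itself (edgeR, adjusted over all genes). These are 1 of 10 genes between neurons and glia, where 8.76% of all genes were called, and 3 of 170 gene and type pairs (1.76%), where 1.74% of all tests were, so both shares are near the background. The effect of strain on Per1, D2 minus B6, was higher in neurons than in glia by 0.83 (SE 0.16, adjusted p = 8.4e-04), a call that was lost without D2 library 3 (0.72). It was also higher in Exc-DG than in all other nuclei by 0.69 (SE 0.16, adjusted p = 0.0037), and lower in oligodendrocytes than in all other nuclei, at -1.41 (SE 0.28, adjusted p = 5.5e-04). These Per1 tests share libraries and are not independent of each other. The effect on Npas2 was lower in astrocytes than in all other nuclei, at -0.50 (SE 0.12, adjusted p = 0.021). The comparisons of a type with all other nuclei were chosen after seeing the data. Groups of 2 libraries were too small for a search for outlying libraries.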

How the results depend on the processing

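The values for single genes in the RNA comparisons were recomputed under each alternative. Of these, 431 kept their side of the threshold, 24 lost their call and 3 gained a call. An estimate that changed sign without a call in either fit is counted among the 431. Another 2 changed sign with a call in either fit. They were Per2 (0.12) and Cry2 (0.47) between neurons and glia with every cell type weighted alike. Of the 25 calls by type, 7 were kept under all 9 alternatives and 16 under at least 6. The 5 strain calls in all nuclei ranged from 3 to 5 when a library was left out. Strain calls by type fell from 25 to 9 with DESeq2 and ranged from 11 (without D2 library 2) to 23 when a library was left out. The 1 interaction of strain with neurons and glia ranged from 0 (without D2 library 3) to 2 (without B6 library 3). With equal weights per type, 5 genes were called between neurons and glia and 5 between excitatory and inhibitory neurons, in place of 8 each. The 1 strain call among promoter peaks became 0 with a window of 500 bases and ranged from 1 to 5 (without D2 library 3) when a library was left out. The cause of these changes was not tested. Depth limits rare types most, where a clock gene often had under 10 counts in a library.

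The library number did not pair the samples: the differences between library 2 and library 3 had a correlation of 0.0032 between the strains over 13117 genes. With that number as a block, 5 clock genes were called in all nuclei, 26 tests by type and 2 promoter peaks. Without the library as a block, 7 genes were called between neurons and glia and 5 between excitatory and inhibitory neurons.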
